A study of Homo sapiens with 16 samples.

Results

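IMPDH1 and 9 other enzymes of nucleotide synthesis (IMPDH2, GMPS, PPAT, GART, PAICS, ATIC, HPRT1, CAD and UMPS) were read in all 16 RNA-seq libraries, which makes 10 of the 26485 genes counted. IMPDH1 was chosen by its measured fall after transfection of the siRNA siGGGGGC, so its own values in that comparison are a description and carry no test. IMPDH2 was taken as its paralog and the other 8 genes as enzymes of the same pathways. All 10 genes passed the filter on low counts in both cell lines. In both lines IMPDH1 was at or below 32.7% of its siNT1 level in each siGGGGGC library. By edgeR 0 of the other 9 enzymes were called after siGGGGGC in either line, where 6.00% of all genes tested were called lower and 3.67% higher in PC3 and 0% either way in HeyA8, and DESeq2 called 1, PAICS in PC3. After a second siRNA, siCAG, it was GMPS, HPRT1 and PAICS that were called lower by edgeR, in HeyA8 cells. In that comparison 4.93% of all genes tested were called lower and 2.88% higher. These calls depended on both siNT1 libraries. PAICS was also not called in a fit of only the 4 libraries compared (adjusted p = 0.139 by edgeR). Markers of proliferating cells had a median log2 fold change of -2.52 in the same comparison, and their part was not tested.

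The libraries came from 2 established human cancer cell lines, PC3 from prostate and HeyA8 from ovary, the latter derived from HEY-T30 according to the labels, and both are labelled as wild type. In each line, cells were mock treated or transfected with siNT1 (a non-targeting control duplex), siGGGGGC (siMxy_3AB in the sample titles) or siCAG, whose sequence is not given in the sources used here. Total RNA was taken 24 and 48 h later, with 1 library for each line, treatment and time, so the 24 and 48 h libraries were the 2 samples of a condition and an SD over them includes the difference between the times, which the fitted tests take out as a term shared by the treatments. The dose of siRNA was 1 nM by the sample labels, which is lower than the dose in the written methods. Between 27937100 and 29971600 reads were counted per library in PC3 and between 29128400 and 31790200 in HeyA8. Nothing in the labels ties the libraries to separate experiments, so the p-values measure only the spread between these libraries, which may be technical. With 1 library for each treatment and time, that spread also holds any siRNA effect that differed between 24 and 48 h. Such effects and technical differences cannot be told apart.

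The lines were checked by markers in the mock libraries. HOXB13, a homeobox gene of prostate, had 9233 and 15762 counts in PC3 and 37 and 28 in HeyA8. TMPRSS2, a prostate serine protease, had 730 and 1014 in PC3 and 0 in both HeyA8 libraries. The prostate kallikrein genes KLK3 and KLK2 were at 0 in every mock library, so these defining markers of prostate were absent. PAX8, a transcription factor of the Müllerian epithelium, had 4015 and 5623 counts in HeyA8 and 131 and 95 in PC3. The ovarian cancer antigen MUC16 had at most 1 count in any mock library. Epithelial markers went both ways between the lines. CDH1, a cadherin, had 3 and 0 counts in HeyA8 against 288 in each PC3 library, and EPCAM 23 and 38 against 421 and 539. The keratin gene KRT8 had 18351 and 23519 counts in HeyA8 against 7254 and 7008 in PC3, and KRT18 14584 and 22895 against 8098 and 9782.

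Cells build purines either de novo, from PRPP to inosine monophosphate (IMP), or by salvage of free bases. PPAT makes the committed step of the de novo route, GART, PAICS and ATIC carry the later steps to IMP, and IMP dehydrogenase, encoded by IMPDH1 and IMPDH2, with GMP synthetase (GMPS) turns IMP into GMP. HPRT1 salvages hypoxanthine and guanine, CAD starts pyrimidine synthesis and UMPS finishes UMP, and growing tumour cells are known to depend on these routes. An siRNA can act like a microRNA through the 6 bases of its guide strand called the seed, which pair with matches in 3′ UTRs.

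The seed GGGGGC pairs with GCCCCC in an mRNA, and the matches in the members' 3′ UTRs are shown because the comparison with siGGGGGC is the one IMPDH1 was chosen on. They were searched on the transcript strand in GENCODE v44 (hg38), taking for each gene its coding transcript whose 3′ UTR is longest; GCCCCC cannot overlap itself. Of 17791 genes with an annotated 3′ UTR, 30.4% held at least 1 match and 6.21% held 3 or more. IMPDH1 (chr7:128392277-128409986, minus strand) held 3 in a 3′ UTR of 730 bases with 64.0% G and C, PAICS (chr4:56435741-56464578, plus strand) held 2 in 5040 bases and GMPS (chr3:155870650-155944020, plus strand) held 1 in 6328 bases. The other 7 members held 0, among them IMPDH2, whose 3′ UTR is 58 bases long. Each site is given below with 12 bases on either side, 5′ to 3′ on the transcript strand, with the match in capitals.
IMPDH1 at chr7:128392784-128392789: gctgccctgggaGCCCCCctccgagcccag
IMPDH1 at chr7:128392702-128392707: tgctccagcctgGCCCCCaccccaggggca
IMPDH1 at chr7:128392528-128392533: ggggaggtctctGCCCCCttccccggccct
PAICS at chr4:56460478-56460483: ctgatctagacaGCCCCCattctcaatcca
PAICS at chr4:56464011-56464016: catccatttcgtGCCCCCagatgttggtgc
GMPS at chr3:155938445-155938450: cttatattaccaGCCCCCcacagccttgca

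The IMPDH1 sites began 218, 300 and 474 bases after the stop codon. The first PAICS site lies inside the gene as the authors counted it, whereas the second PAICS site and the GMPS site lie beyond the counted end of their genes. With the transcript of the longest coding sequence in its place, IMPDH1 again held 3 matches and GMPS 1, PAICS held 1, and 26.8% of genes held any. In their coding sequences CAD held 4 matches, GART 2 and GMPS 1. A match of letters is a description of the sequence, not a measured site.

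IMPDH1 in PC3 cells had 3676 normalized counts in mock cells at 24 h and 3814 at 48 h. After siNT1 it had 4503 and 5674, after siGGGGGC 1474 and 784, and after siCAG 3674 and 4129 (counts scaled for library size within the line by edgeR's TMM method). The siGGGGGC libraries were the lowest of the 8 and did not overlap any other group. At 24 h the siGGGGGC library held 32.7% of the siNT1 level and at 48 h 13.8%, or log2 fold changes of -1.61 and -2.85. The fitted log2 fold change over both times was -2.19, with a standard error (SE) of 0.29. Against mock in place of siNT1 it was -1.74 (SE 0.29), since the siNT1 libraries stood above the mock libraries. The RNA came from whole cultures, so fewer cells of one kind and less RNA per cell cannot be told apart.

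IMPDH1 in HeyA8 cells had 1855 and 1970 normalized counts in mock cells at 24 and 48 h, 2746 and 2681 after siNT1, 724 and 272 after siGGGGGC, and 2370 and 1304 after siCAG. Here too both siGGGGGC libraries lay below all others. They held 26.4% of the siNT1 level at 24 h and 10.1% at 48 h, log2 fold changes of -1.92 and -3.30. The fitted log2 fold change was -2.57 (SE 0.41) against siNT1 and -2.08 (SE 0.41) against mock. The difference between the lines (PC3 minus HeyA8) was 0.38 with an SE of 0.54, from 1 fit over the 16 libraries. The annotation lists 10 pseudogenes of IMPDH1, with which reads can be shared, so its counts are uncertain to that extent. The same holds for PAICS with 7 pseudogenes, HPRT1 with 3, PPAT with 2 and GMPS with 1, while 0 were found for IMPDH2, ATIC, GART, CAD and UMPS. Pseudogenes were found by names built on the gene symbol, so any named otherwise are not included. IMPDH2 in turn shares exons on the same strand with another annotated gene (ENSG00000290315).

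IMPDH2, which catalyses the same step as IMPDH1, had lower values in the siGGGGGC libraries of both lines, without passing the test. In PC3 cells it had 7749 and 7638 normalized counts in mock, 7811 and 7619 after siNT1, and 6752 and 3534 after siGGGGGC. Both siGGGGGC libraries lay below the 4 controls, the one at 48 h far below. The log2 fold change was -0.62 (SE 0.25; 95% interval -1.20 to -0.03; adjusted p = 0.140 by edgeR's quasi-likelihood test). In HeyA8 cells IMPDH2 had 8780 and 10527 normalized counts after siNT1 and 6907 and 3109 after siGGGGGC, again below all 4 controls. Its log2 fold change there was -1.03 (SE 0.41; interval -2.02 to -0.04; adjusted p = 0.503 by edgeR). It was lower at 48 h than at 24 h, with log2 fold changes of -0.21 (24 h) and -1.11 (48 h) in PC3 and of -0.35 and -1.76 in HeyA8. Without the siGGGGGC library of 24 h, IMPDH2 in PC3 was at -1.16 with an adjusted p of 0.00298 by edgeR, and without that of 48 h at -0.22 with an adjusted p of 0.350. Without either siNT1 library it was at -0.74 or -0.50, with adjusted p of 0.311 and 0.516 by edgeR. In HeyA8 the value ran from -1.61 to -0.52 with 1 library left out, and the smallest adjusted p was 0.298 by edgeR. In a fit of only the 4 HeyA8 libraries compared it was called, at -1.05 with an adjusted p of 0.00109 by edgeR.

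**Figure D1:**
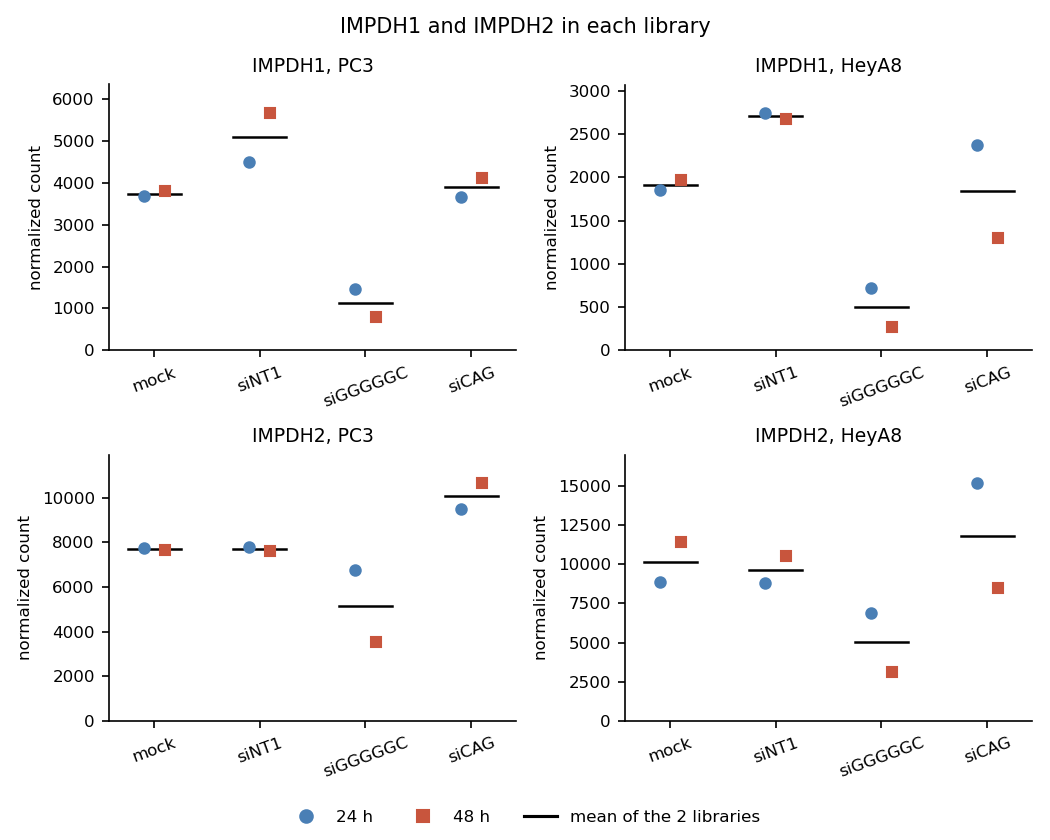
Normalized counts (linear axes from 0) of IMPDH1 and IMPDH2 in each of the 8 PC3 and 8 HeyA8 libraries by treatment, circles for 24 h, squares for 48 h, and a bar for the mean of the 2. IMPDH1 after siGGGGGC lies between 784 and 1474 in PC3 and between 272 and 724 in HeyA8, below every other library of its line, and IMPDH2 is lowest in the siGGGGGC library of 48 h.

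The balance of the pair was read as the share of IMPDH1 in the summed counts of IMPDH1 and IMPDH2. In PC3 cells this share was 32.2% and 33.3% in mock, 36.6% and 42.7% after siNT1, 17.9% and 18.2% after siGGGGGC, and 27.9% in both siCAG libraries at 24 and 48 h. The siGGGGGC libraries of 24 and 48 h thus held nearly the same share, although both genes were lower at 48 h. In HeyA8 cells the share was 17.3% and 14.7% in mock, 23.8% and 20.3% after siNT1, 9.48% and 8.04% after siGGGGGC, and 13.5% and 13.3% after siCAG. IMPDH2 gave most of the counts in every library. Exact 95% binomial intervals were narrow, from 17.1% to 18.8% for the first siGGGGGC library of PC3, and cover counting error only. The share used the values that chose IMPDH1 and is given without a test.

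**Figure D2:**
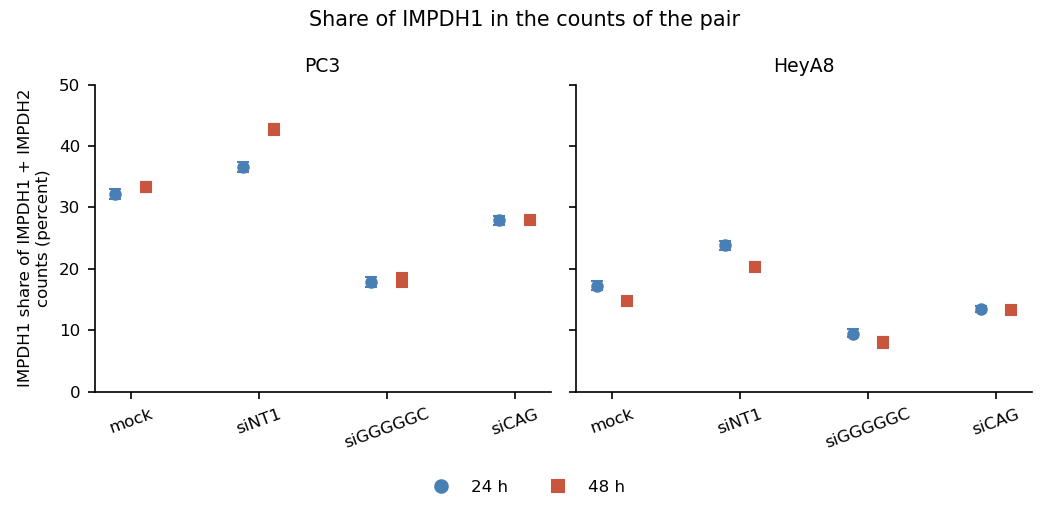
IMPDH1 as a percentage of the summed raw counts of IMPDH1 and IMPDH2 in each library, by treatment and line, circles for 24 h and squares for 48 h, with exact 95% binomial intervals as error bars. The siGGGGGC libraries hold the lowest shares, 17.9% and 18.2% in PC3 and 9.48% and 8.04% in HeyA8.

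The question of the remaining enzymes was whether they moved with IMPDH1 after siGGGGGC. In PC3 cells 0 of the 9 members other than IMPDH1 passed an adjusted p of 0.05, where 6.00% of the 15136 genes tested were called lower and 3.67% higher. Across these 9 the median log2 fold change was 0.10, against 0.0029 for all genes tested. DESeq2 called 1 of them, PAICS, and at an unadjusted p under 0.05 edgeR found 4864 genes in all. In HeyA8 cells 0 of 9 passed, 0% of the 13872 genes tested were called in either direction by edgeR, and 1352 genes had an unadjusted p under 0.05. As 0% of all genes were called, this does not show that the 9 were unchanged in HeyA8. DESeq2 also called 0 of the 9 there. Their median was -0.10, against 0.0040 for all genes. In PC3 the 8 proliferation markers described below summed to 48769 and 46740 normalized counts after siGGGGGC and to 59951 and 51566 after siNT1. Of the 8, 1 was called lower, MKI67 (log2 fold change -1.35), and 0 higher, and their median log2 fold change was -0.30. The markers went different ways. The most abundant was BIRC5 after siGGGGGC, at 13181.9 and 18503.2 normalized counts. After siNT1 it was TOP2A at 24 h (11577.5) and MKI67 at 48 h (10071). The part of these markers in the members' values was not tested. Both comparisons rest on the same siNT1 libraries that enter the comparisons with siCAG below.

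PAICS, the bifunctional enzyme of the middle of the de novo route, had the smallest adjusted p of the 9 in PC3. It had 23408 and 21226 normalized counts in mock, 19361 and 19122 after siNT1, and 25380 and 27517 after siGGGGGC, above every control library. Its log2 fold change was 0.46 (SE 0.14; adjusted p = 0.0687 by edgeR) against siNT1. Against mock it was smaller, at 0.25 (SE 0.14; adjusted p = 0.220 by edgeR). In HeyA8 it was -0.16 (SE 0.24) against siNT1. Without the siGGGGGC library of 24 h in PC3, edgeR called PAICS (0.53, adjusted p = 0.0329) and HPRT1 (0.56, adjusted p = 0.0361) besides IMPDH2, and without that of 48 h none of these, with PAICS at 0.32 and HPRT1 at 0.083. PPAT, whose gene lies head to head with PAICS 125 bases away, had 3199 and 2559 normalized counts after siNT1 in PC3 and 1798 and 2026 after siGGGGGC. The 2 siGGGGGC libraries were below all 4 controls, at a log2 fold change of -0.57 (SE 0.25; adjusted p = 0.160 by edgeR). In HeyA8 PPAT had a log2 fold change of -0.08 (SE 0.35) and its groups overlapped. The neighbours PPAT and PAICS therefore had values of opposite sign in PC3 at both times.

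GMPS, which follows IMP dehydrogenase in the GMP branch and carries 1 match beyond its counted end, had log2 fold changes of 0.10 (SE 0.15) in PC3 and 0.06 (SE 0.21) in HeyA8. For GART, which catalyses several steps of the de novo route, the values were 0.0023 (SE 0.19) and -0.25 (SE 0.27). ATIC, which closes the purine ring, gave 0.31 (SE 0.16) and -0.07 (SE 0.25). For the salvage enzyme HPRT1 they were 0.36 (SE 0.17) and 0.0052 (SE 0.20), with both siGGGGGC libraries of PC3, at 3259 and 3643 normalized counts, above the 4 controls at 2456 to 3155. Of the pyrimidine enzymes, CAD had -0.03 (SE 0.18) and -0.27 (SE 0.35), and UMPS 0.32 (SE 0.16) and -0.10 (SE 0.24). UMPS was among 5 control transcripts that the study picked for their small change after siGGGGGC. Whether these libraries served for that choice is not clear from the sources used here, so its values may not be independent of it. In PC3 UMPS had 1422 and 1201 normalized counts after siGGGGGC, above the 4 controls at 1032 to 1049. In HeyA8, 8 of the 9 members had a lower log2 fold change at 48 h than at 24 h, and in PC3 6 of 9. The interaction test over 16 libraries called 0 of the 9 as different between the lines (edgeR; 0% of 15887 genes, 1054 at an unadjusted p under 0.05; DESeq2 also 0 of the 9).

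**Figure D3:**
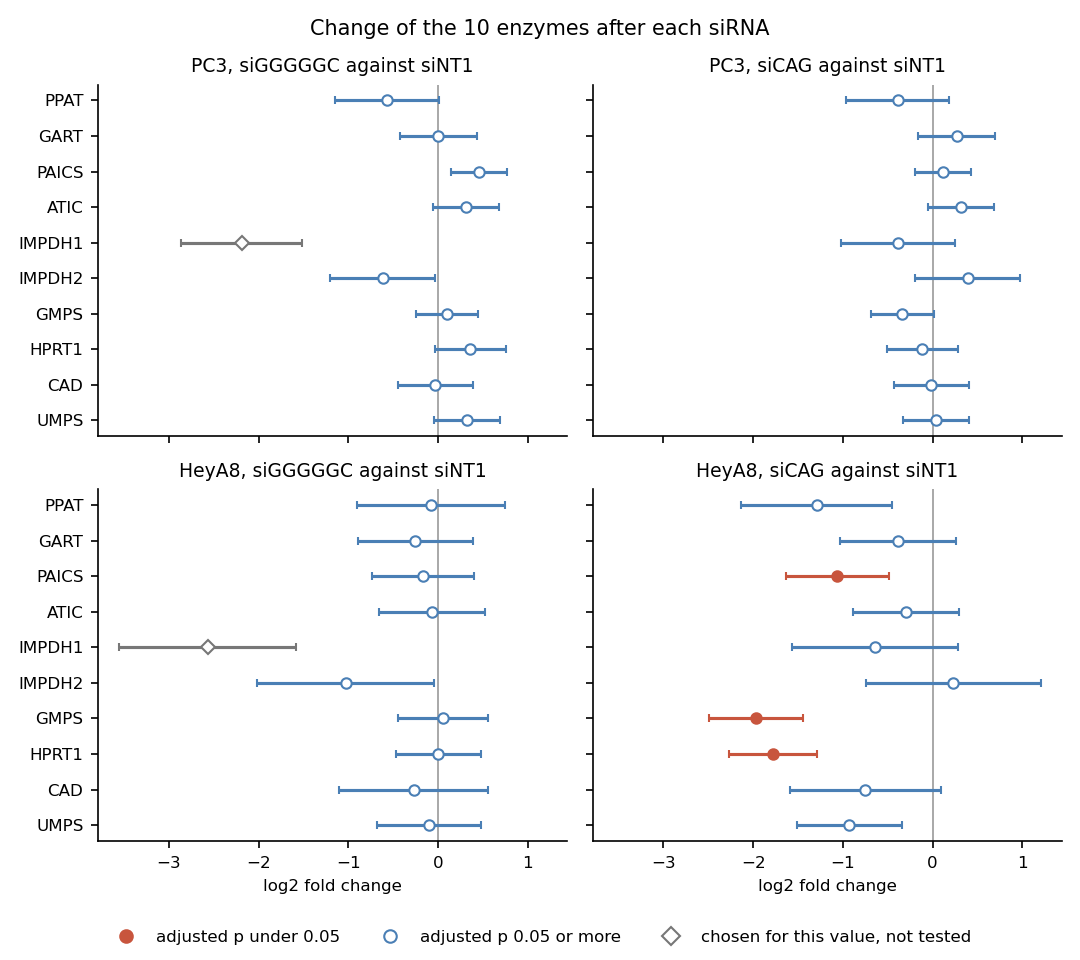
Log2 fold change against siNT1 of the 10 enzymes with 95% intervals from edgeR, in 4 panels for siGGGGGC and siCAG in PC3 and HeyA8. IMPDH1 after siGGGGGC (grey diamonds, chosen for this value) is at -2.19 and -2.57, and the filled points that passed the adjusted p of 0.05 are GMPS, HPRT1 and PAICS after siCAG in HeyA8.

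After siCAG in HeyA8 cells, 3 of the 10 members fell and 0 rose, where 4.93% of the 13872 genes tested were called lower and 2.88% higher. The median log2 fold change of the 10 was -0.84, against -0.01 for all genes. By the fitted value over both times GMPS was lowest, although at 24 h PPAT (-1.85) and HPRT1 (-1.83) were below GMPS (-1.79). GMPS had 8438 and 8511 normalized counts in mock, 7933 and 7863 after siNT1, and 2300 and 1750 after siCAG. The log2 fold change was -1.97 (SE 0.22, adjusted p = 0.00796 by edgeR), with the siCAG libraries far below all 6 others. HPRT1 had 3144 and 3428 normalized counts in mock, 3190 and 3485 after siNT1, and 898 and 1056 after siCAG. Its log2 fold change was -1.78 (SE 0.21, adjusted p = 0.00872 by edgeR), and the fall was about equal at both times, -1.83 and -1.72. PAICS fell from 14722 and 17899 to 9002 and 6696 normalized counts, a log2 fold change of -1.06 (SE 0.24, adjusted p = 0.0470 by edgeR). Its call was lost with a filter at a mean of 100 counts (adjusted p = 0.0503 by edgeR) and in a fit of only the 4 libraries compared (adjusted p = 0.139 by edgeR). Against mock in place of siNT1 edgeR called the same 3 genes, at -2.07 for GMPS, -1.75 for HPRT1 and -1.16 for PAICS.

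PPAT and UMPS stayed just above the threshold in that comparison. PPAT had 2463 and 2714 normalized counts after siNT1 and 682 and 1495 after siCAG, a log2 fold change of -1.29 (SE 0.35, adjusted p = 0.0707 by edgeR). UMPS had 2556 and 2440 after siNT1 and 1639 and 1040 after siCAG, a log2 fold change of -0.93 (SE 0.25, adjusted p = 0.0652 by edgeR). In both genes the siCAG libraries lay below all 4 controls. DESeq2 called these 2 as well as the other 3. CAD had a log2 fold change of -0.12 at 24 h and -1.44 at 48 h, with an adjusted p of 0.208 by edgeR. GART and ATIC had fitted values of -0.38 (SE 0.27) and -0.29 (SE 0.25).

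With either siNT1 library left out, edgeR called 0 of the 10, with adjusted p of at least 0.0862 for GMPS. Over the 4 fits that each left out 1 library, the log2 fold change was -2.16 to -1.81 for GMPS, -1.82 to -1.75 for HPRT1 and -1.33 to -0.82 for PAICS. Without the siCAG library of 24 h it called 7, adding PPAT, GART, UMPS and CAD, and without that of 48 h it called 5, adding PPAT and UMPS.

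The IMP dehydrogenases were not called after siCAG in HeyA8. IMPDH1 in HeyA8 had a log2 fold change of -0.64 (SE 0.39, adjusted p = 0.315 by edgeR), with 2370 normalized counts at 24 h and 1304 at 48 h. IMPDH2 had 15178 and 8500, against 8780 and 10527 after siNT1, so 1 siCAG library lay above and the other below all 4 controls, and the fitted value was 0.23 (SE 0.41, adjusted p = 0.744 by edgeR). The siNT1 libraries here are those on which IMPDH1 was chosen, and against mock IMPDH1 was at -0.15 (SE 0.39).

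Markers of proliferating cells were read in the same libraries. Of 8 proliferation markers (MKI67, TOP2A, PCNA, MCM2, MCM5, CCNB1, CDK1 and BIRC5), 3 fell after siCAG in HeyA8 by edgeR's test, namely PCNA (log2 fold change -2.46), MCM2 (-2.94) and MCM5 (-2.40), where 4.93% of all genes fell. The median of the 8 was -2.52, against -0.01 for all genes. Their summed level was 79406 and 84565 normalized counts after siNT1, 29124 after siCAG at 24 h and 2651 at 48 h, and none was at 0 in any library. The most abundant was MKI67 in both siNT1 libraries and in the siCAG library of 24 h, and PCNA in that of 48 h. Their part in the fall of GMPS, HPRT1 and PAICS was not tested. After siGGGGGC in HeyA8 the summed level was 94714 and 89035 normalized counts, with TOP2A the most abundant, and the median log2 fold change of the 8 was -0.0046, against 0.0040 for all genes.

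In PC3 cells 0 of the 10 members passed edgeR's test after siCAG, where 1.16% of the genes tested were called lower and 0.0396% higher. Of all genes tested 2037 had an unadjusted p under 0.05, and DESeq2 also called 0 of the 10 members. GMPS had 4440 and 4395 normalized counts after siNT1 and 3774 and 3260 after siCAG, a log2 fold change of -0.34 (SE 0.15, adjusted p = 0.385 by edgeR). Both its siCAG libraries lay below the 4 controls at 3903 to 4652, whereas those of GART and UMPS lay above theirs. HPRT1 had 2961 and 2456 after siNT1 and 2860 and 2153 after siCAG, a log2 fold change of -0.12 (SE 0.17, adjusted p = 0.808 by edgeR). IMPDH1 was at -0.39 (SE 0.28) against siNT1 and at 0.06 (SE 0.28) against mock. IMPDH2, with 9486 and 10644 normalized counts, lay above all 4 controls at 7619 to 7811, at a log2 fold change of 0.39 (SE 0.25, adjusted p = 0.536 by edgeR). In a fit of only the 4 libraries compared, edgeR called IMPDH2 (0.38, adjusted p = 0.0331). IMPDH1 was at -0.38 in that fit. It was chosen by its fall against these siNT1 libraries, so this value is a description. The proliferation markers summed to 59951 and 51566 normalized counts after siNT1 and 46351 and 24126 after siCAG in PC3, and 0 of the 8 passed the test.

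The effect of siCAG differed between the lines for GMPS and HPRT1. In 1 fit over 16 libraries the difference of the log2 fold changes (PC3 minus HeyA8) was 1.52 for GMPS (SE 0.27, adjusted p = 0.0366 by edgeR) and 1.55 for HPRT1 (SE 0.26, adjusted p = 0.0275 by edgeR), where 0.636% of 15887 genes were called. The median difference of the 10 members was 0.71, against -0.13 for all genes tested. PAICS had a difference of 1.06 (SE 0.29, adjusted p = 0.134 by edgeR). IMPDH1 and IMPDH2 had differences of 0.14 (SE 0.53) and 0.05 (SE 0.54). Without any one of the siNT1 libraries or of the PC3 siCAG libraries, 0 of the 10 differences were called.

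**Figure D4:**
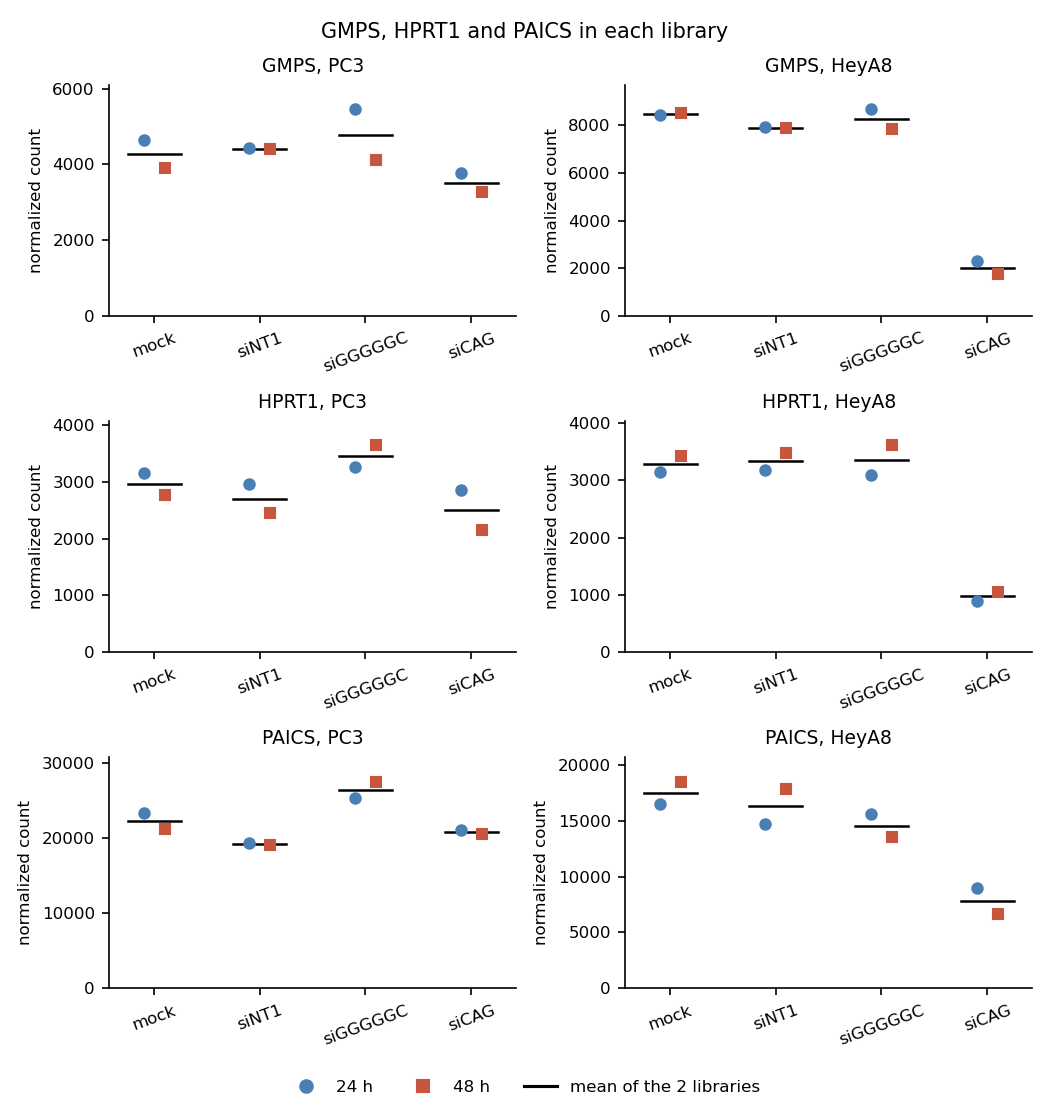
Normalized counts (linear axes from 0) of GMPS, HPRT1 and PAICS in each library by treatment, in PC3 (left) and HeyA8 (right), circles for 24 h, squares for 48 h, and a bar for the mean of the 2. In HeyA8 the siCAG libraries lie at 1750 to 2300 for GMPS, 898 to 1056 for HPRT1 and 6696 to 9002 for PAICS, below all other libraries, and in PC3 those of HPRT1 and PAICS overlap the controls.

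Levels were compared between enzymes per length, as CPM (the count scaled to library size) per kilobase of the reference transcript inside the counted gene. In PC3 mock cells PAICS was highest at 217 ± 15.0 (SD, n = 2), followed by IMPDH2 at 143 ± 1.51. HPRT1, ATIC, GMPS and GART followed between 65.2 and 53.4, each overlapping its neighbour in that order. IMPDH1 came next at 43.99 ± 1.13 CPM per kilobase, then CAD at 29.4 ± 3.83, PPAT at 21.6 ± 0.334 and UMPS at 4.78 ± 0.0322. In HeyA8 mock cells IMPDH2 at 221 ± 36.8 and PAICS at 199 ± 13.8 were highest and overlapped, and ATIC at 133 ± 10.4 and GMPS at 130 ± 0.454 overlapped as well. Below them stood GART at 110 ± 9.15, HPRT1 at 84.4 ± 4.36 and CAD at 45.0 ± 2.87, then IMPDH1 at 26.3 ± 0.869, PPAT at 22.4 ± 0.375 and UMPS at 14.1 ± 0.137, none of which overlapped its neighbour. IMPDH2 thus stood above IMPDH1 per length in both lines.

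Between the mock cells of the lines, 4 of the 10 enzymes were lower in PC3 and 0 higher. With the time term of each line, the fit over 16 libraries sets the lines side by side at 24 h, and its time terms rest on all treatments, the siGGGGGC libraries included. At 24 h 19.9% of 15887 genes were called lower and 25.6% higher in PC3. A comparison at the mean of both times, chosen after seeing the data, called the same 4 enzymes, where 22.0% of genes were lower and 29.0% higher. The values that follow are log2 differences (PC3 minus HeyA8) at 24 h and then at the mean of both times. For UMPS they were -1.70 (SE 0.24, adjusted p = 0.000227 by edgeR) and -1.57, for ATIC -1.21 (SE 0.25, adjusted p = 0.00259 by edgeR) and -1.16, for GMPS -1.20 (SE 0.22, adjusted p = 0.00111 by edgeR) and -1.22, and for GART -1.03 (SE 0.29, adjusted p = 0.0136 by edgeR) and -1.06. The median of the 10 was -0.73 and then -0.64, against 0.09 and 0.10 for all genes tested. IMPDH1 had 0.45 (SE 0.43) at 24 h, which rests in part on the libraries it was chosen by, and 0.71 (SE 0.38, adjusted p = 0.139 by edgeR) at the mean of both times. IMPDH2 had -0.75 (SE 0.44, adjusted p = 0.188 by edgeR) and -0.65. PPAT, at 0.17 (SE 0.35) and -0.06 (SE 0.31), turned sign between them, and PAICS (0.08 and 0.12), HPRT1 (-0.22 and -0.38) and CAD (-0.72 and -0.63) were called in neither. At 24 h the call of GART was lost without either PC3 mock library and without the HeyA8 mock library of 48 h, while UMPS, ATIC and GMPS were called in each of these fits.

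**Figure D5:**
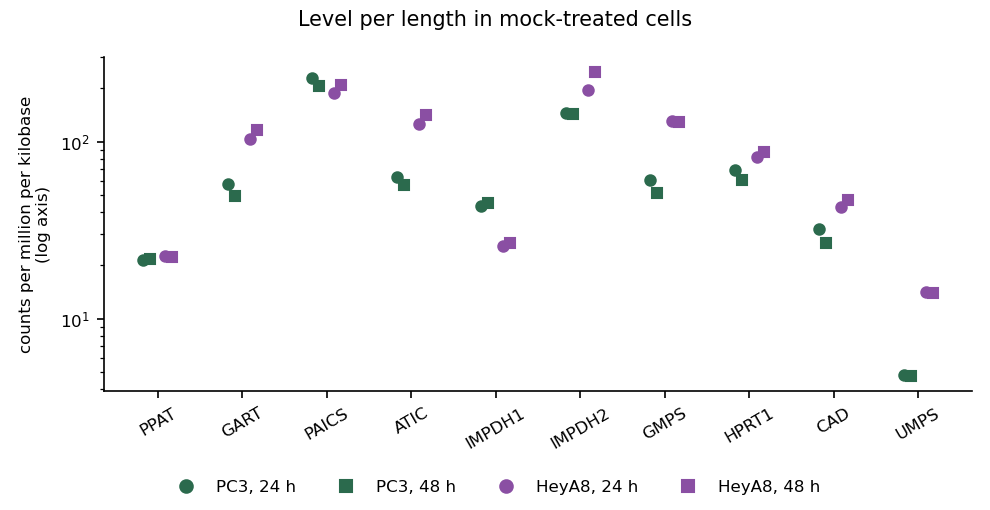
Level per length (CPM per kilobase, log axis) of the 10 enzymes in the mock libraries, PC3 in green and HeyA8 in purple, circles for 24 h and squares for 48 h. UMPS is at 4.78 on average in PC3 and 14.1 in HeyA8, and GART, ATIC and GMPS are also lower in PC3, whereas IMPDH1 is at 43.99 in PC3 and 26.3 in HeyA8.

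The control siRNA itself was compared with mock treatment. In PC3, 0 of the 10 members passed the test (0.231% of all genes did, 1364 had an unadjusted p under 0.05, and DESeq2 called 0 of the 10), and in HeyA8 0 of 10 (0% of all genes by edgeR, 177 at an unadjusted p under 0.05, and 0 of the 10 by DESeq2). For IMPDH1 the log2 fold changes were 0.45 (SE 0.28) in PC3 and 0.49 (SE 0.39) in HeyA8, and each of its siNT1 libraries lay above both mock libraries of its line. IMPDH1 was chosen by its fall against these siNT1 libraries, a choice that favours genes high in them, so these values are a description. The other 9 members ranged from -0.21 to 0.14 in PC3 and from -0.17 to 0.16 in HeyA8. Between 48 and 24 h, over the 4 treatments, 0 of the 10 members passed in PC3 (0.0264% of all genes, 2032 at an unadjusted p under 0.05) and 0 of 10 in HeyA8 (0%, and 879), and DESeq2 called 0 of the 10 in either line. This comparison holds the siGGGGGC libraries by which IMPDH1 was chosen, so its own values, -0.08 in PC3 and -0.55 in HeyA8, are a description.

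Around the 10 enzymes, 68 further genes of nucleotide metabolism were read in 7 lists, from PRPP synthesis to nucleoside diphosphate kinases. After siGGGGGC in PC3, 1 of the 66 tested fell and 4 rose by edgeR, and their median was 0.09 on the log2 scale, that of all genes being 0.0029. Over all genes tested 6.00% fell and 3.67% rose in this comparison. The 5 calls became 0 without either siNT1 library, 2 without the siGGGGGC library of 48 h and 18 without that of 24 h, and 1 in a fit of only the 4 libraries compared. The 4 that rose were AK4, a mitochondrial adenylate kinase (log2 fold change 1.31), RRM2, the small subunit of ribonucleotide reductase (0.92), PRPS1, which makes PRPP (0.76), and PHGDH, the first enzyme of serine synthesis (0.67). SAMHD1, which breaks down deoxynucleotides, fell by 0.88 on the log2 scale. PRPS1, which supplies the substrate of PPAT, had 3534 and 3547 normalized counts after siNT1 and 5707 and 6247 after siGGGGGC, with an adjusted p of 0.0248 by edgeR. After siGGGGGC in HeyA8, 0 of 67 passed, with 0 by DESeq2 as well. None of the lists held more than 2 called genes in PC3 after siGGGGGC.

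After siCAG in HeyA8, 6 of 67 fell and 2 rose, where 4.93% of all genes tested fell and 2.88% rose. The 8 calls became 0 without either siNT1 library, 35 without the siCAG library of 24 h and 29 without that of 48 h. RRM1, the large subunit of ribonucleotide reductase, fell from 9855 and 9344 normalized counts after siNT1 to 2699 and 603 (log2 fold change -2.71, SE 0.57, adjusted p = 0.0397 by edgeR). DUT, which removes dUTP, fell from 2941 and 2531 to 613 and 561 (-2.22, SE 0.22, adjusted p = 0.00594 by edgeR). The nucleoside kinase DCK (-2.12), PRPS2, a second PRPP synthetase (-2.09), and PRPSAP1, a protein bound to PRPP synthetase (-1.09), also fell. ALDH1L2, an enzyme of folate metabolism, rose by 2.002 on the log2 scale. The median of the 67 was -0.25, against -0.01 for all genes tested. By list it was -1.16 for deoxynucleotide genes, -0.71 for de novo purine synthesis, -0.47 for pyrimidines, -0.16 for one-carbon and serine metabolism, 0.01 for nucleoside diphosphate kinases, 0.23 for the AMP and GMP branch and 0.30 for purine salvage and breakdown. In PC3, where 1.16% of all genes fell and 0.0396% rose after siCAG, 2 of 66 fell and 0 rose. The 2 calls became 0 without either siNT1 library or the siCAG library of 48 h, 1 without that of 24 h and 13 in a fit of only the 4 libraries compared. They were ADSS, which leads from IMP to AMP (-1.24, adjusted p = 0.0131 by edgeR), and PSAT1 of serine synthesis (-0.96, adjusted p = 0.0356 by edgeR).

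Genes that ran most like IMPDH1 were sought by Pearson correlation of log2 CPM, centred within each line, over the 16 libraries and 4981 well expressed genes. The 5 highest were EIF5A (r = 0.98), POLR2E (0.98), ITPK1 (0.98), TCEB3 (0.98) and NFIC (0.97). Of these, EIF5A, a translation factor, and POLR2E, a subunit of RNA polymerase II, were measured in the study as targets of siGGGGGC. IMPDH2 ranked 149 of 4981 with r = 0.87, and of the other members GART was next with 0.42 and HPRT1 lowest with -0.34. The libraries share time points and sequencing depth within a line, and 4 of the 16 are the siGGGGGC libraries in which IMPDH1 was chosen for its fall, so these values describe the pattern only.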

How the data were processed

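The members, the lists and the tests were chosen with earlier results of these data known. Reads had been trimmed and mapped to hg38 (the submitters' processing notes name STAR and HTSeq, with no version), and the authors deposited raw read counts per gene, 1 whole number per gene and library for 26485 genes, without normalization. Whether counting used strand is not given in the sources used here. From the counts, edgeR 4.0.16 in R 4.3.3 was fitted within each line to all 8 libraries (filterByExpr, TMM, quasi-likelihood test, siRNA and time as terms), with Benjamini-Hochberg adjustment over all genes and calls at an adjusted p under 0.05. Differences between lines were fitted over 16 libraries with a time term for each line, which sets the mock cells of the lines side by side at 24 h; their mean over both times was added after seeing the data. The spread that the terms left (biological coefficient of variation) was 18.0% in PC3 and 28.2% in HeyA8. It includes any siRNA effect that differed between 24 and 48 h. Further genes named are, in each siRNA comparison, the up to 10 of the wider lists that changed most among those called, with a mean of at least 100 normalized counts and the same direction at both times, and the 5 most like IMPDH1 (mean of at least 1000). Some genes that this rule or the marker lists name are not reported here, though the counts include them. Proliferation markers were read as a list. Levels per length used GENCODE v44 transcripts, since the deposited length column sums over transcripts (19669 for IMPDH1). The row of GART mixes coordinates of 2 contigs. Alternatives tried included DESeq2 1.42.0, the RLE normalization, no low-count filter or a stricter one, no time term, other sets of libraries, mock as the control and each library left out. The fits were tested on simulated data, the outcome of which is not reported here.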

Additional observations from a re-analysis of the deposited data

Results flagged for a closer look

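The response to siCAG differed between PC3 and HeyA8 for GMPS, by 1.52 on the log2 scale (PC3 minus HeyA8), and for HPRT1, by 1.55, each by the interaction test of edgeR's fit over 16 libraries. Without any one of the siNT1 or PC3 siCAG libraries 0 of the 10 members were called, and without a time term 1, HPRT1. In HeyA8 the proliferation markers summed to 29124 and 2651 normalized counts after siCAG, and in PC3 to 46351 and 24126; their part in the difference was not tested.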

How the results depend on the processing

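With 2 libraries a condition, taken at different times, and a spread of 28.2% in HeyA8, small changes were not detectable. After siGGGGGC in HeyA8 large changes could be missed as well. There edgeR called 0% of the 13872 genes tested. IMPDH2, at a log2 fold change of -1.03 (SE 0.41; interval -2.02 to -0.04), was not called (adjusted p = 0.503 by edgeR). The 0 of 9 members other than IMPDH1 called there does not show that they were unchanged. Leaving out 1 library leaves an arm with 1 library, which is assumed to vary like the others. The comparison of times uses all 8 libraries, so a fit on 4 libraries was not run for it, and siCAG comparisons have no fit without the siCAG libraries. No paired analysis was possible because the labels give no replicate numbers; time, the only shared label, is already a term of the fit. The causes of the changes below were not tested.

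Members called after siGGGGGC in PC3 (0) became 1 with DESeq2 (PAICS) and 0 to 3 with 1 library left out (IMPDH2, PAICS and HPRT1 without the siGGGGGC library of 24 h). After siGGGGGC in HeyA8 (0) they became 1 in a fit of the 4 compared libraries (IMPDH2). After siCAG in PC3 (0) they became 2 in the fit of 4 libraries (IMPDH1 and IMPDH2). IMPDH1 was chosen by its fall against these siNT1 libraries, so its part of that count is a description. After siCAG in HeyA8 (3) they became 5 with DESeq2, 5 in the fit of 16 libraries and 0 to 7 with 1 library left out, and PAICS was lost with a mean of at least 100 counts (adjusted p = 0.0503) and in the fit of 4 libraries (0.139), both by edgeR. For siNT1 against mock in HeyA8 (0) the fit of 4 libraries called 1 (IMPDH1). This too is a description, since the siNT1 libraries entered the choice of IMPDH1. Line differences after siCAG (2) became 1 without a time term and 0 to 5 with 1 library left out. Enzymes differing between mock cells (4) became 3 to 4 with 1 left out.

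Of the wider genes, the 5 called after siGGGGGC in PC3 became 11 with DESeq2, 2 without a time term, 1 in the fit of 4 libraries, 8 against mock, 2 in the fit of 16 and 0 to 18 with 1 left out. The 2 after siCAG in PC3 became 4 with DESeq2, 0 without a time term, 13 in the fit of 4, 0 in the fit of 16 and 0 to 1 with 1 left out. The 8 after siCAG in HeyA8 became 19 with DESeq2, 20 in the fit of 16 and 0 to 35 with 1 left out. The 0 after siGGGGGC in HeyA8 became 8 in the fit of 4 and 1 without the siCAG libraries. Per length, the mean share of IMPDH1 in the pair became 29.3% after siNT1 and 12.2% after siGGGGGC in PC3, and 15.2% and 5.71% in HeyA8. The fall of IMPDH1 after siGGGGGC ranged from -2.80 to -1.73 in PC3 and from -3.19 to -2.04 in HeyA8 with 1 library left out.

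Log2 fold changes near 0 turned sign. Against mock these were, in PC3, CAD after siGGGGGC (0.0068) and IMPDH1 (0.061), PAICS (-0.10) and CAD (0.019) after siCAG, and in HeyA8 after siGGGGGC GMPS (-0.043) and PPAT (0.083). GART after siGGGGGC in PC3 became -0.012 without a low-count filter, -0.011 in the fit of 4 libraries and -0.0061 without the siCAG libraries, HPRT1 after siGGGGGC in HeyA8 -0.0073 without a filter, and CAD after siCAG in PC3 0.012 in the fit of 16. With 1 library left out, the values after siGGGGGC in PC3 ran from -0.048 to 0.24 for GMPS, -0.29 to 0.21 for GART and -0.29 to 0.15 for CAD, and after siCAG in PC3 from -0.28 to 0.029 for HPRT1, -0.041 to 0.10 for UMPS and -0.23 to 0.18 for CAD. After siGGGGGC in HeyA8 they ran from -0.025 to 0.14 for GMPS, -0.44 to 0.23 for PPAT, -0.52 to 0.035 for GART, -0.22 to 0.088 for ATIC, -0.38 to 0.063 for PAICS, -0.026 to 0.034 for HPRT1, -0.24 to 0.040 for UMPS and -0.61 to 0.11 for CAD, and after siCAG from -0.17 to 0.64 for IMPDH2.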
